A study of Mus musculus with 15 samples.

Results

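Metal handling in 4T1 cells, a mouse mammary carcinoma line, was followed through 8 genes of zinc storage, sensing and transport. They were taken from the count table by symbol, as Mt1, Mt2, Mtf1, Slc30a1, Slc30a5, Slc39a1, Slc39a10 and Slc39a14, and make up 8 of the 40402 genes listed there. All 8 reached 1 CPM, a count scaled to library size, in at least 1 library and were among the 17647 genes tested. Bulk RNA-seq had been done on untreated wild-type 4T1 cells and on 4T1 cells treated from 24 h after seeding with an extract of blackberry (BLA) or of blueberry (BLU), or with gold nanoparticles made from blackberry (BLA-A) or blueberry (BLU-A). All were grown in RPMI1640 with serum. Neither a dose nor the length of exposure is given in the labels. The labels give 3 samples per condition. A sequencing summary in the study's supplement lists a single raw read total for each condition with 3 subsets of reads under it, while other parts of the study speak of separate libraries and replicates. Within each condition the 3 columns were closer together than sampling noise alone gives (chi-square per degree of freedom 0.0951 to 0.475), so they were averaged and counted as 1 library. As analysed here there was therefore 1 library per condition, 1 cell line and no replicate check on any pair of conditions. The labels also date every sample to a batch of its own, so batch and treatment cannot be told apart.

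Zinc in the cytosol is held low by proteins that bind it and by carriers that move it across membranes. Metallothioneins, encoded by Mt1 and Mt2, are small cysteine-rich proteins that bind zinc, copper and cadmium. The zinc-sensing transcription factor MTF1 binds metal response elements (MREs) upstream of Mt1, Mt2 and Slc30a1 and activates them when free zinc rises, and in mice it represses Slc39a10. Carriers of the Slc30a (ZnT) family move zinc out of the cytosol, to the outside or into organelles, and carriers of the Slc39a (ZIP) family move it in.

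The short elements through which MTF1 and NRF2, the oxidant-responsive factor, act on genes of this kind are shown first. Matches to the MRE core (TGCACNC or TGCGCNC) and to the core of the antioxidant response element (ARE, TGACNNNGC), the NRF2 element, were searched on both strands in the 250 bases before each start in the RefSeq promoter table, whose sequences were placed on GRCm39 by exact match. Each line below reads 5′ to 3′ along the gene's own strand, with the core in capitals and 7 bases of flank on each side, and 2 of the MREs of Mt1 are printed.
Mt2 MRE, chr8:94899016-94899036 (+): tcgcctcTGCACCCggcccct
Mt2 MRE, chr8:94899111-94899131 (+): gacccttTGCGCTCagctcct
Mt2 MRE, chr8:94899189-94899209 (+): ggagggcGTGTGCAggctctg
Mt2 ARE, chr8:94899160-94899182 (+): gggggtgTGACTCAGCgcggggg
Mt1 MRE, chr8:94905687-94905707 (+): cccgctgTGCACACtggcgct
Mt1 MRE, chr8:94905808-94905828 (+): aacccttTGCGCCCggactcg
Mt1 ARE, chr8:94905762-94905784 (+): gggcgcgTGACTATGCgtgggct
Slc30a1 MRE, chr1:191638843-191638863 (+): gggttccGAGTGCAaagcaaa
Slc30a1 ARE, chr1:191638804-191638826 (+): caccgggGCCTTGTCAcgctcgg
Slc30a5 MRE, chr13:100969970-100969990 (−): tccaccaGCGCGCAggcgcag
Slc39a1 ARE, chr3:90155429-90155451 (+): ccactgaGCTCAGTCAttggcag

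Mt2 held 3 MRE cores, which 1.26% of the 32851 promoters in the table reach, and Slc30a1 and Slc30a5 held 1 each, where 21.4% of promoters hold at least 1. Mt1 held 1 before its RefSeq start. Before a transcript start that GENCODE annotates 152 bases further downstream it held 5, which 0.0822% of promoters reach (this window was added after the first was seen, and its second part lies inside the longer Mt1 transcript). No MRE match overlapped an ARE match. An ARE core was found before Mt2, Slc30a1, Slc39a1 and the downstream Mt1 start, and in 10.2% of all promoters. Neither core was found before Mtf1 or before either start of Slc39a10. Slc39a14 was not matched in the promoter table. A match is a run of letters and does not show that a factor binds there.

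**Figure D1:**
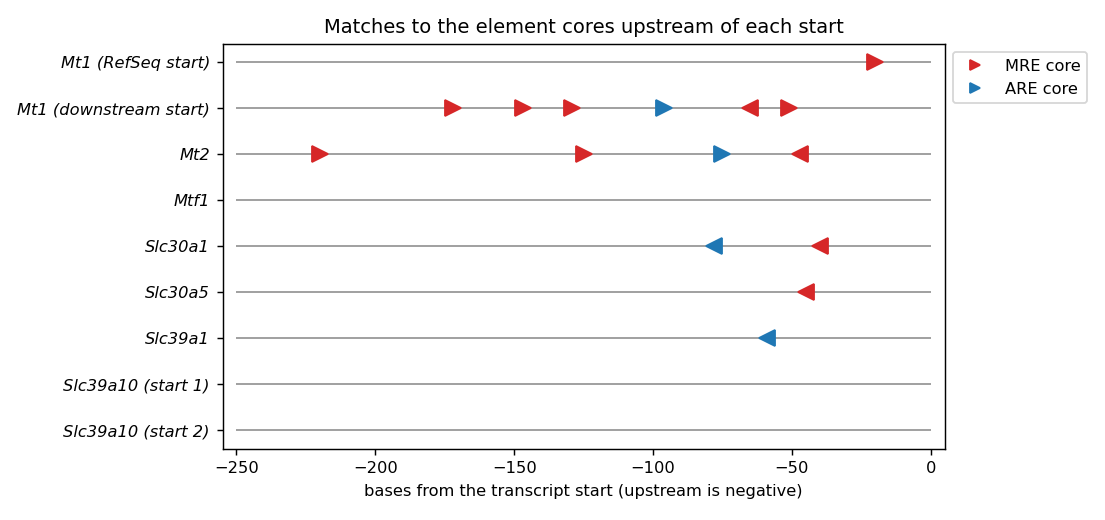
Matches to the MRE core (red) and the ARE core (blue) in the 250 bases before each transcript start, by distance from that start in bases; arrowheads give the strand of the match relative to the gene. Mt1 from its downstream start (5 MRE cores) and Mt2 (3) hold the most, and the lines of Mtf1 and both Slc39a10 starts are empty.

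The 8 genes differed widely in level. Per kb of exon, and with all reads within a gene counted (introns too), Mt1 was the highest in untreated cells at 68.3 CPM per kb and Mt2 followed at 19.2 CPM per kb. The importers came next, with Slc39a14 at 10.9, Slc39a1 at 10.8 and Slc39a10 at 6.41 CPM per kb. Slc30a5 stood at 3.49, Mtf1 at 3.07 and Slc30a1 at 0.417 CPM per kb. Slc39a14 and Slc39a1 could not be ordered on this scale, with a ratio per kb of 1.00 (exact 95% counting interval 0.939 to 1.07). Slc30a5 was 1.13 times Mtf1 (1.03 to 1.25), and the other neighbours in this order were at least 1.69 times apart, with intervals above 1. The order depended on the length used. Per kb of whole gene span, Mt1 (68.3) and Mt2 (13.1) stayed highest, but Slc39a1 (8.07) lay above Slc39a14 (2.72). On that scale Slc30a5 (1.18) also lay above Slc39a10 (0.656).

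**Figure D2:**
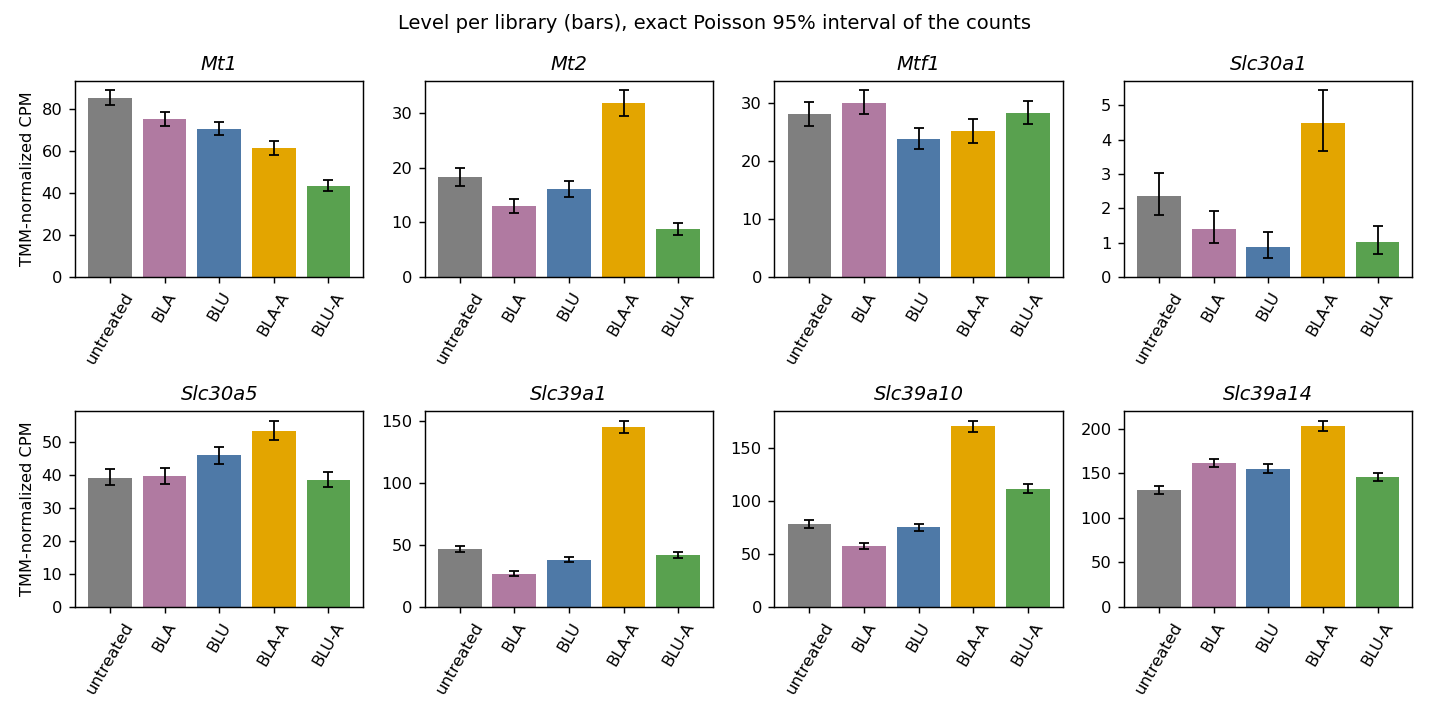
TMM-normalized CPM of each gene in the 5 libraries; bars start at 0, each panel has its own scale, and error bars are exact Poisson 95% intervals, which cover counting error only. BLA-A had the highest bar for Mt2, Slc30a1, Slc30a5, Slc39a1, Slc39a10 and Slc39a14, and Mt1 was highest in untreated cells.

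Of the 8 genes, 6 had their highest level in BLA-A-treated cells, where 29.4% of all genes tested had theirs. Log2 fold changes below are on TMM-normalized CPM plus 0.5, and a gene is counted as higher or lower where the change exceeds 1 in size. In BLA-A against untreated cells, 2 of the 8 were higher by this rule (8.57% of all genes were) and 0 were lower (12.4%), so that 2 of 8 passed against 20.9% of all genes. In BLU-A against untreated cells 0 were higher (3.35%) and 1, Mt2, was lower (4.50%), where 7.85% of all genes passed in either direction. In BLU 0 were higher (5.67%) and 1, Slc30a1, was lower (4.60%), where 10.3% passed. In BLA 0 were higher (7.94%) and 0 lower (8.52%), where 16.5% passed. Low genes pass more often: among genes with a mean of at least 10 CPM, which all of the 8 but Slc30a1 had, the shares were 12.6% in BLA-A, 0.860% in BLU-A, 2.40% in BLU and 5.21% in BLA. The median log2 fold change of the 8 genes was 0.71 for BLA-A, -0.31 for BLA, -0.21 for BLU and -0.09 for BLU-A, and the median of all genes lay between -0.01 and 0.00 in each. These comparisons share the untreated library.

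Mt1 is encoded at chr8:94905710-94906955 (+) on GRCm39, and no other annotated gene overlaps it. It stood at 85.1 CPM in untreated cells, 75.2 with BLA, 70.3 with BLU, 61.3 with BLA-A and 43.3 with BLU-A. It was thus lower in 4 of 4 treated libraries, as were 19.2% of all genes tested. The largest difference was in BLU-A, with a log2 fold change of -0.97 (counting interval -1.08 to -0.87). In BLA-A it was -0.47 (-0.57 to -0.38), in BLU -0.27 (-0.36 to -0.19) and in BLA -0.18 (-0.27 to -0.09). All these intervals lie below 0, but they cover only the error of counting reads, not the spread between cultures.

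Mt2 lies 5502 bases before Mt1 on the same strand, at chr8:94898819-94900207, and is overlapped over 1222 bases by the lncRNA Gm45774 on the other strand. The reads were counted with both mates merged, so reads of this pair may not be fully told apart. It stood at 18.3 CPM in untreated cells, 12.9 with BLA, 16.0 with BLU, 31.8 with BLA-A and 8.75 with BLU-A. It did not keep the order of Mt1: BLA-A was highest and BLU-A lowest. Against untreated cells its log2 fold change was 0.78 in BLA-A (0.63 to 0.97) and -1.02 in BLU-A (-1.29 to -0.83). With a pseudocount of 2 CPM the change in BLU-A was -0.91, under the threshold. In the 2 extracts it was smaller, -0.48 in BLA (-0.70 to -0.30) and -0.18 in BLU (-0.38 to 0.00).

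The number of Mt1 counts per Mt2 count needs no scaling between libraries, and was examined after the values above were seen. Any reads of Gm45774 counted as Mt2 would enter it. It was 4.66 in untreated cells (exact 95% interval 4.22 to 5.15), 5.82 in BLA (5.19 to 6.53), 4.38 in BLU (3.95 to 4.87) and 4.95 in BLU-A (4.29 to 5.72). In BLA-A it was 1.93 (1.76 to 2.11), from 1419 counts of Mt1 and 737 of Mt2. BLA-A was the library whose interval lay below all the others, and the BLA interval lay just above that of untreated cells. The sum of both genes was 2757 counts in untreated cells and 2156 in BLA-A, so the total of metallothionein reads was not higher there. In BLU-A the ratio was within counting error of the untreated one while both genes were lower, with a summed count of 1380.

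**Figure D3:**
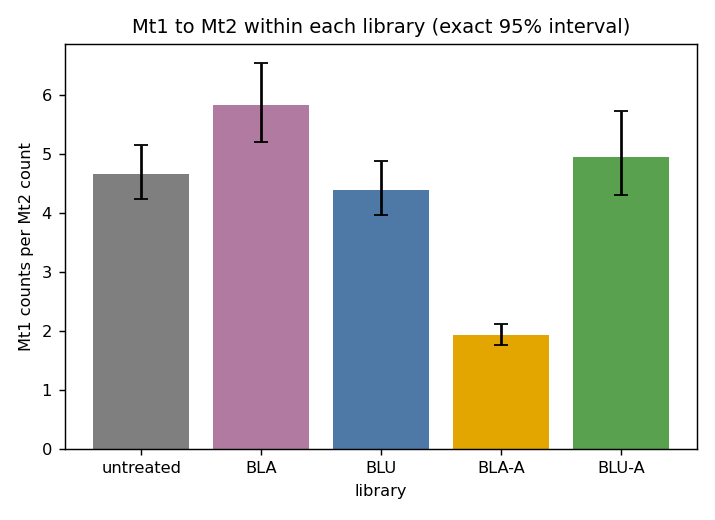
Mt1 counts per Mt2 count in each library; bars start at 0 and error bars are exact 95% intervals from the binomial split of the counts. BLA-A stands at 1.93 and the other 4 libraries between 4.38 and 5.82.

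Mtf1, which encodes the zinc sensor, spans chr4:124695897-124743593 (+). It stood at 28.0 CPM in untreated cells, 30.0 with BLA, 23.7 with BLU, 25.0 with BLA-A and 28.2 with BLU-A. This was the narrowest range of the 8 genes, 0.33 on the log2 scale from lowest to highest. Against untreated cells its counting interval was wholly below 0 in BLU (log2 fold change -0.23, -0.39 to -0.08) and in BLA-A (-0.16, with an upper bound just under 0), and spanned 0 in BLA and BLU-A.

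Slc30a1 encodes ZnT1, the zinc exporter of the plasma membrane, at chr1:191638808-191645361 (+). It was the least expressed of the 8 genes, with 63 counts in untreated cells, 38 with BLA, 24 with BLU, 104 with BLA-A and 27 with BLU-A, or 2.36, 1.40, 0.87, 4.49 and 1.02 CPM. BLA-A was above untreated cells and the other 3 treatments below. The log2 fold change was 0.80 in BLA-A (0.46 to 1.40) and -1.06 in BLU (-2.18 to -0.74). At so low a level the pseudocount matters: with 2 CPM the change in BLU was -0.60. Like Mt2, it was above untreated cells in BLA-A and below them in the other 3 treated libraries.

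Slc30a5 encodes ZnT5, which loads zinc into the early secretory pathway, at chr13:100936795-100970006 (−). It varied less, at 39.3 CPM in untreated cells, 39.8 with BLA, 46.0 with BLU, 53.6 with BLA-A and 38.7 with BLU-A. Its largest log2 fold change was 0.44 in BLA-A (0.33 to 0.57). The changes in BLA (0.02, -0.11 to 0.14) and BLU-A (-0.02, -0.15 to 0.10) were within counting error.

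Slc39a1 encodes ZIP1, a zinc importer of the cell surface, at chr3:90155138-90160924 (+). It had the widest range of the 8 genes, 2.41 on the log2 scale, at 46.7 CPM in untreated cells, 26.9 with BLA, 38.2 with BLU, 145.4 with BLA-A and 42.0 with BLU-A. BLA-A was 3.11 times the untreated level, while the other 3 treated libraries were below it. The log2 fold change was 1.63 in BLA-A (1.54 to 1.73), -0.79 in BLA (-0.93 to -0.66), -0.29 in BLU (-0.41 to -0.17) and -0.15 in BLU-A (-0.27 to -0.04). The lncRNA Gm66066 is annotated on the other strand over the whole 5787 bases of the gene, with the same limit on telling their reads apart. Of 3 near neighbours, chosen after their values were seen, Creb3l4 and Crtc2 were also highest in BLA-A, at 146.5 CPM against 45.3 and at 58.97 against 40.8 in untreated cells, and Jtb was lowest there, at 9.50 against 15.7 CPM.

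Slc39a10 encodes ZIP10, at chr1:46845872-46964964 (−). It stood at 78.1 CPM in untreated cells, 57.0 with BLA, 75.2 with BLU, 170.3 with BLA-A and 111.4 with BLU-A. Both particle libraries were above untreated cells and both extract libraries below, in BLU only within counting error. No other gene of the 8 had this order, and the share of all genes with it was not taken. The log2 fold change of Slc39a10 was 1.12 in BLA-A (1.05 to 1.20), 0.51 in BLU-A (0.43 to 0.59), -0.45 in BLA (-0.55 to -0.36) and -0.05 in BLU (-0.14 to 0.03). The change in BLA-A was 0.93 with libraries scaled by their totals, a scaling that puts the median of all genes in that comparison at -0.18.

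Slc39a14 encodes ZIP14, which also carries iron and manganese, at chr14:70540678-70588914 (−). It stood at 131.4 CPM in untreated cells, 161.8 with BLA, 155.5 with BLU, 203.6 with BLA-A and 145.7 with BLU-A. It was higher in 4 of 4 treated libraries, as were 19.5% of all genes tested. The log2 fold change was 0.63 in BLA-A (0.57 to 0.70), 0.30 in BLA (0.24 to 0.36), 0.24 in BLU (0.18 to 0.31) and 0.15 in BLU-A (0.08 to 0.22).

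**Figure D4:**
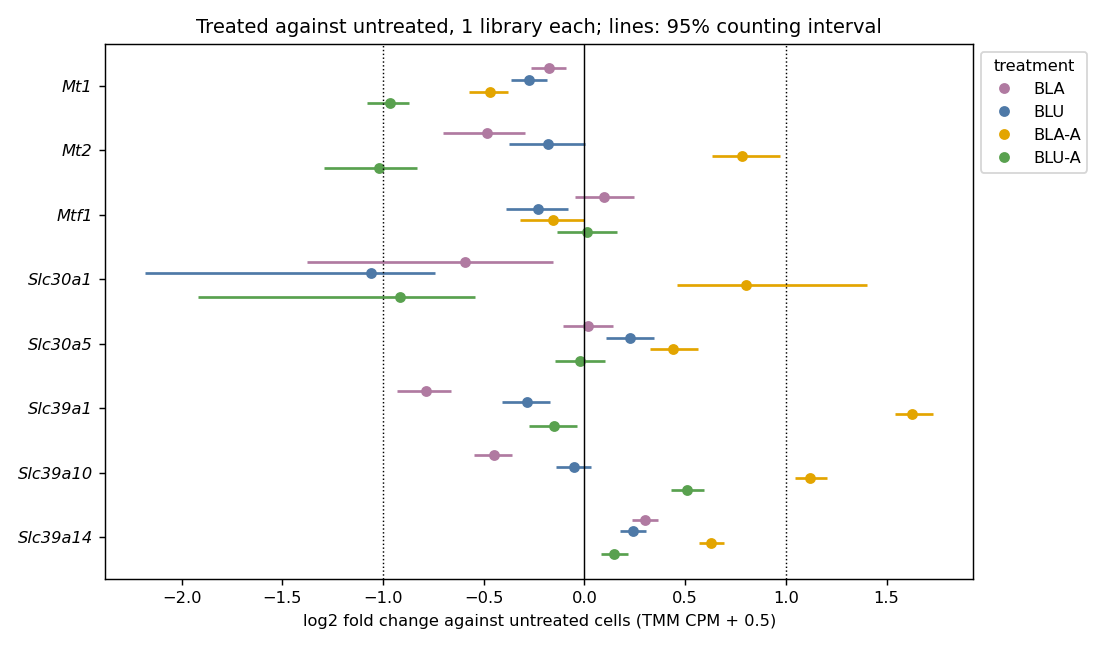
Log2 fold change of each gene in the 4 treated libraries against the untreated one, on TMM-normalized CPM plus 0.5; lines are 95% counting intervals and dotted lines mark -1 and 1. Slc39a1 and Slc39a10 in BLA-A lie above 1, and Mt1 lies left of 0 in every treatment.

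The treated libraries were also tested together, 4 against the untreated 1, by the edgeR quasi-likelihood test, in which the spread comes from the differences between the 4 treatments. Of 17647 genes 4 passed a Benjamini-Hochberg adjusted p of 0.05 (0.0227%), and 0 of the 8 genes did. At an unadjusted p under 0.05 there were 483 genes (2.74%) and again 0 of the 8, of which Mt1 had the smallest p (0.212 by edgeR, adjusted p = 0.9999). Its log2 fold change was -0.44 with a standard error of 0.33. DESeq2 called 17 genes and 0 of the 8. No change shared by the 4 treatments passed for these genes, with the untreated library assumed to vary like the treated ones.

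The gold particles were compared with the extract they were made with. In BLA-A against BLA, 4 of the 8 genes were higher by over 1 (11.6% of all genes were) and 0 were lower (12.9%). These were Slc39a1 with a log2 fold change of 2.41 (2.32 to 2.55), Slc39a10 with 1.57 (1.49 to 1.66), Slc30a1 with 1.40 (1.14 to 2.26; 0.93 with a pseudocount of 2 CPM) and Mt2 with 1.27 (1.11 to 1.49). Of all genes 24.5% passed in that pair, and 17.5% of those with a mean of at least 10 CPM. In BLU-A against BLU 0 of the 8 were higher (2.87% of all genes) and 0 lower (3.89%), where 6.76% of all genes passed and 0.358% of those with at least 10 CPM. The largest change of the 8 there was Mt2 at -0.84 (-1.11 to -0.64). Slc39a10 was next in the upward direction at 0.56 (0.49 to 0.65), and Slc39a1 stood at 0.13 (0.01 to 0.26). Mt1 was lower in both, by -0.29 (-0.39 to -0.20) with blackberry and -0.69 (-0.81 to -0.59) with blueberry. Mt2 was higher with the blackberry particles and lower with the blueberry particles, a difference between the pairs that was not tested.

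**Figure D5:**
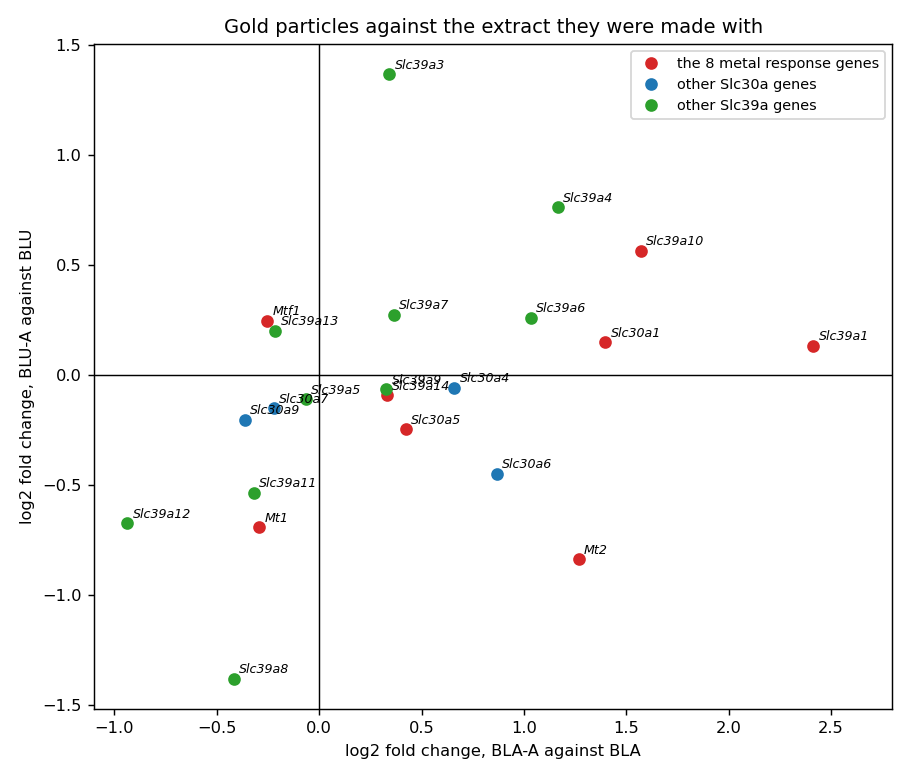
Log2 fold change of BLA-A against BLA (horizontal) and of BLU-A against BLU (vertical) for the 8 genes (red) and for the other Slc30a (blue) and Slc39a (green) genes tested; each point is 1 gene and each axis compares 1 library with 1 library. Slc39a10 and Slc39a4 were among several genes above 0 on both axes, Mt1 was among several below 0 on both, and Mt2 was to the right of and below 0.

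With the berry as the replicate, the 2 particle libraries were tested against the 2 extract libraries by the edgeR quasi-likelihood test. The untreated library was kept in the fit as a group of its own, and the libraries were not paired by berry. After Benjamini-Hochberg adjustment 0 of 17647 genes passed (0%), at an unadjusted p under 0.05 there were 1055 (5.98%), and DESeq2 called 36, with 0 of the 8 genes by either tool. Slc39a10 was higher in 2 of 2 berries, with a log2 fold change of 1.09, a standard error of 0.29 and an unadjusted p of 0.0067 by edgeR (adjusted p = 0.701). Slc39a1 was also higher in 2 of 2, at 1.52 with a standard error of 0.54 (unadjusted p = 0.026 and adjusted p = 0.701 by edgeR). In the blueberry pair it was higher by only 0.13. Slc30a1 was higher in 2 of 2 as well, at 1.28 with a standard error of 0.90 (unadjusted p = 0.197 and adjusted p = 0.720 by edgeR). The share of all genes higher in both berries was not taken. The size of the changes in Slc39a10 and Slc39a1 depended on BLA-A. Without BLA-A, Slc39a1 dropped to 0.36 and Slc39a10 to 0.75 on the log2 scale. That leaves 1 particle library, so no call is drawn from it.

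Several features of the libraries moved with BLA-A. It had the lowest TMM factor (0.904, against 1.01 to 1.03 in the others). In BLA-A against BLA the median log2 fold change was 0.29 for genes spanning under 10 kb and -0.29 for those over 50 kb, and in BLU-A against BLU 0.12 and -0.13. Among genes with a mean of at least 10 CPM these medians were 0.52 and -0.23 in the blackberry pair and 0.17 and -0.12 in the blueberry pair. Mt1, Mt2, Slc30a1 and Slc39a1 span under 10 kb, and Slc39a10 spans 119093 bases. Gm26917, listed with the nuclear RNAs, took 86672 CPM in BLA-A and 44343 to 63343 CPM in the other libraries. The other 3 nuclear RNAs listed were not highest in BLA-A: Malat1 was highest in BLA (3709 CPM, against 1615 in untreated cells and 3089 in BLA-A), and Neat1 and Kcnq1ot1 were lower in BLA-A than in BLA (-1.46 and -1.01 on the log2 scale). All 7 epithelial markers listed were detected, with a summed level of 969 to 1297 CPM in the other libraries and 1842 CPM in BLA-A, where Cldn4 (log2 fold change 2.77) and Krt19 (1.93) were higher than in untreated cells by over 1. Epcam was at 39.7 CPM in BLA-A against 68.8 in untreated cells (-0.78), and the other 4 markers stood between 0.27 and 0.91. The fibroblast list summed to 87.5 to 103 CPM, nearly all of it Pdgfra, with Lum at 0 counts throughout. The leukocyte list summed to 8.75 to 11.9 CPM and the endothelial list to 2.94 to 7.01 CPM. The part of these in the results was not tested. In bulk RNA, fewer cells of a kind and less RNA per cell cannot be told apart.

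Of the remaining genes of the same families that were tested, 6 of 14 passed 1 in size in at least 1 of the 6 pairs. In single pairs 6.76% to 24.5% of all genes passed. The share of all genes passing in any pair was not taken, so this count has no direct match. Mt3 had 0 counts in every library, which allows up to 0.111 to 0.117 CPM (3 counts), and Mt4 had at most 7, so neither was tested. Of 8 other Slc30a genes 4 were tested. Among them only Slc30a6, a carrier of the secretory pathway, passed a log2 fold change of 1 in any pair, going from 8.21 CPM in untreated cells to 18.6 in BLA-A (1.14). Of 11 other Slc39a genes 10 were tested, and 0 were higher by over 1 in BLA-A against untreated cells, 1 was lower (Slc39a12, 71 counts in untreated cells and 10 in BLA-A), where 8.57% and 12.4% of all genes were, and their median was 0.25. In BLA-A against BLA 2 of the 10 were higher by over 1 (11.6% of all genes were) and 0 were lower (12.9%). The 2 were Slc39a4 (42.4 to 95.7 CPM, log2 fold change 1.17) and Slc39a6 (35.7 to 73.5 CPM, 1.03). Slc39a4 encodes ZIP4, the importer of dietary zinc in the intestine, and Slc39a6 encodes ZIP6, which pairs with ZIP10. In BLU-A against BLU Slc39a3 was higher (1.37) and Slc39a8 lower (-1.38), where 2.87% and 3.89% of all genes were. Both are low genes, at 1.43 to 5.40 CPM. Slc39a3 was also lower in BLU than in untreated cells (-1.25), where 4.60% of all genes were. Slc39a12, Slc39a3 and Slc39a8 were named after their values were seen.

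Copper-handling genes, whose products share ligands with metallothioneins, were set beside them. Of 10 listed 9 were tested, and in BLA-A against untreated cells 1 was higher (Atp7b, a copper pump, at 34 and 93 counts, named after its values were seen) and 3 were lower by over 1, where 8.57% and 12.4% of all genes were. The 3 lower were Commd1, a regulator of copper export, which went from 98.6 to 32.4 CPM (-1.59), Ccs, the copper chaperone of superoxide dismutase, from 12.2 to 4.14 CPM (-1.45), and Sco1, an assembly factor of cytochrome oxidase, from 15.6 to 7.47 CPM (-1.01). Atox1, the copper chaperone of the export pumps, was at 36.0 CPM in BLA-A, 19.0 in untreated cells (0.91) and 9.25 in BLA. In BLA-A against BLA it was the 1 of the 9 higher by over 1 (1.91), where 11.6% of all genes were. In that pair Ccs (-1.95) and Commd1 (-1.32) were lower by over 1, where 12.9% of all genes were. In BLU-A against untreated cells none of the 9 passed, against 7.85% of all genes. Of 4 tested genes listed as responding to MTF1, 1 was higher by over 1 in BLA (7.94% of all genes) and in BLA-A (8.57%). This was Ndrg1, at 160.7 CPM in untreated cells, 349.1 in BLA (1.12) and 470.9 in BLA-A (1.55). It was at 180.1 in BLU and 159.4 in BLU-A. Selenow, Csrp1 and Gclc stood at 0.56, 0.97 and 0.65 in BLA-A and at -0.36, 0.01 and 0.77 in BLA, and were named after their values were seen.

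The genes whose profile lay nearest to that of Slc39a1, the gene with the widest range, were sought among 9764 genes with a mean of at least 10 CPM, by Euclidean distance between centred log2 CPM over the 5 libraries. They were Fasn (distance 0.13), Bak1 (0.13), Dusp14 (0.14), Ggnbp1 (0.14) and Gnl1 (0.17). Fasn, which encodes fatty acid synthase, stood at 719.7 CPM in untreated cells, 433.8 in BLA and 2072 in BLA-A, and Bak1, an effector of apoptosis, at 30.2, 17.2 and 104.6 CPM. Being picked for this closeness, all 5 shared the shape of Slc39a1, with their highest level in BLA-A and their lowest in BLA. Among the zinc genes Slc39a10 ranked 573 and Mt2 1095. The measure rests on 5 values a gene and says nothing of shared control.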

How the data were processed

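The authors deposited raw counts per gene, not normalized, for 40402 genes in 15 columns. Per the study's methods, ribosomal RNA was removed, reads were aligned by STAR to GRCm39 (the build also in the submitters' processing notes, which name DESeq2 1.36.0), and merged mates were counted as single reads by strand in OmicsBox on whole genes, introns included, without multi-mapped reads. The authors' other tables hold their own fold changes with p-values and a GO enrichment, and were not used.

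Library totals were 25613778 to 26956442 counts, where 3 counts equal 0.111 to 0.117 CPM. Genes with 1 CPM in 1 library were kept, and counts were scaled by TMM in edgeR 4.0.16 (R 4.3.3). Pairs of libraries have no test. Exact conditional binomial 95% intervals of the fold, taken without the 0.5 CPM pseudocount, and Poisson intervals cover counting error only. Tests over several libraries used edgeR's quasi-likelihood F test, adjusted after Benjamini-Hochberg and checked on simulated data, with DESeq2 1.42.0 as an alternative. Other alternatives were the scaling, filter, pseudocount, columns used and libraries left out. Spans and overlaps came from GENCODE M39 on GRCm39, promoter sequences from RefSeq (GRCm38.p6, placed on GRCm39). Python 3.11.15 with scipy 1.17.1 was used.

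The 8 genes and the other lists were chosen with earlier results of these data known. All 8 are described. From other lists, up to 4 genes that passed 1 (log2) in any pair and had 10 CPM in 1 library are named, by size of change, and so are the 5 genes nearest in profile to the member of widest range.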

Additional observations from a re-analysis of the deposited data

Results flagged for a closer look

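For 4 of the 8 genes, the gold particles differed from their extract in opposite directions in the blackberry and blueberry pairs, with both counting intervals away from 0. The same held for 15.6% of all genes tested and for 17.9% of those with a mean of at least 10 CPM. Each pair is 1 library against 1 library, and the difference between the pairs was not tested. Mt2 had a log2 fold change of 1.27 in BLA-A against BLA and -0.84 in BLU-A against BLU. For Slc30a5 these were 0.42 and -0.25, for Slc39a14 0.33 and -0.093, and for Mtf1, the other way round, -0.25 and 0.25. Of these 8 values, that of Mt2 in BLA-A against BLA exceeds 1 in size. No group had enough libraries to look for a library far from the rest of its group.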

How the results depend on the processing

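Each condition has 1 library, and Slc30a1, with 24 to 104 counts, is the most limited by depth of the 8 genes. Over other scalings, pseudocount, filter and columns, the 8 genes' log2 fold changes between libraries moved by at most 0.46 (Slc30a1, pseudocount 2 CPM). Sign changed only for Slc30a5 in BLA and Mtf1 in BLU-A, with values from -0.02 to 0.02. In the tests over several libraries, where none of the 8 genes was called, the sign changed under at least 1 alternative for Mt2, Mtf1, Slc30a1, Slc30a5, Slc39a1 and Slc39a14. A library left alone in a group is assumed to vary like the others. The causes of the moves below were not tested.

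With a pseudocount of 2 CPM, 0 genes passed in BLU and 0 in BLU-A against untreated cells, and with scaling by total counts 1 passed in BLA-A. Leaving out each column number gave 0 to 1 in BLU and 0 to 2 in BLU-A. For treated against untreated libraries DESeq2 called 17 genes, and leaving out a library 3 to 46, the 46 without BLA-A. For particles against extracts DESeq2 called 36 of 17647 genes and the berry as a term 3 of 17077, with 0 of the 8 in both. No filter on low counts gave 554 of 29781 genes, with 2 of the 8 (Slc39a1 and Slc39a10). Leaving out a library gave 1 to 4198 genes, with 0 to 4 of the 8. The highest, 4198 of 17416, was without BLU-A, which leaves BLA-A as the only particle library. The 4 there were Mt2, Slc39a1, Slc39a10 and Slc39a14, in a setting where a large share of all genes passed. Each of these fits leaves 1 library in a group, so no call is drawn from them.

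The labelled replicate numbers do not pair the columns: same-numbered columns deviated with a mean correlation of -0.0011 over 30 pairs (-0.0199 to 0.0146). Treating the 15 columns as separate samples counts columns that agree within sampling noise as replicates. For treated against untreated it gave 3803 of 18007 genes, and 2753 with the replicate block, with 0 of the 8 in both. For particles against extracts it gave 9060 of 18007 genes, and 7893 with the block. There 4 of the 8 (Mt1, Slc30a1, Slc39a1 and Slc39a10) passed in both, in a setting where a large share of all genes did.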

Other observations

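Metallothionein genes are also known to respond to glucocorticoids, oxidants and heat shock, and listed genes of those responses were read in the same libraries. In BLA-A against untreated cells 3 of 6 glucocorticoid-responsive genes were higher by over 1 and 1 was lower, where 8.57% and 12.4% of all genes were. Dusp1, a phosphatase of MAP kinases, stood at 146.6 CPM in BLA-A against 35.3 CPM, a log2 fold change of 2.04, the clock gene Per1 at 46.6 against 11.7 CPM (1.95), and the kinase gene Sgk1 at 121.2 against 53.2 CPM (1.18). The gene that was lower, Zbtb16, had 76 counts in untreated cells, 2 in BLA-A, 5 in BLA and 6 in BLU. Fkbp5, the most abundant of the list in untreated cells, was at 83.1 against 124.8 CPM (-0.58), and Tsc22d3 stood at 0.58. Of 6 oxidant-responsive genes 1 was higher, Hmox1, which encodes heme oxygenase, at 22.7 against 3.60 CPM (2.50). Txnrd1, the most abundant of that list in untreated cells, was at 132.5 against 178.5 CPM (-0.43). The rest of the list stood between 0.06 and 0.97. Against BLA, Nqo1 was higher in BLA-A (26.3 and 9.95 CPM, 1.36). Of 5 tested heat shock genes 3 were higher, Hspa1b at 53.7 against 21.1 CPM (1.33), Dnajb1 at 44.6 against 20.3 CPM (1.12) and Hspb1 at 76 against 27 counts. The other tested members had lower values: Hsph1, the most abundant of the list, was at 299.5 against 475 CPM (-0.67) and Bag3 at 79.7 against 94.1 CPM (-0.24), and the list summed to 480.8 CPM in BLA-A and 612 CPM in untreated cells. Zbtb16, Fkbp5, Tsc22d3, Txnrd1, Hspb1, Hsph1 and Bag3 were named after their values were seen. Hspa1b has a near-identical copy, Hspa1a, so its counts are uncertain. In the extracts against untreated cells 0 of these genes were higher by over 1 (7.94% of all genes in BLA, 5.67% in BLU). Zbtb16 was the 1 lower in both (8.52% and 4.60%), at -2.29 in BLA and -2.22 in BLU. The highest in BLA were Hmox1 (0.97) and Per1 (0.89). In BLU-A against untreated cells 0 of these genes were higher by over 1 (3.35% of all genes) and 1, Zbtb16 with 24 counts, was lower (4.50%). No relation between these lists and the metallothionein genes was tested.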
